A study of Mus musculus with 9 samples.

Results

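Heart tissue of 6 mice that had been operated was compared with that of 3 sham-operated mice, gene by gene, to describe what the operation did irrespective of the treatment that followed it. All animals were male C57BL/6J mice labelled as 18 to 20 weeks old, with no genetic modification named. The sham mice (n = 3) received distilled water. The operated mice had undergone an operation labelled TAC, which is usually read as transverse aortic constriction. Of these, 3 received distilled water (TAC hearts) and 3 received Lingguizhugan decoction, a Chinese herbal preparation (LD hearts). The decoction was given to operated mice only, so that in the LD hearts the operation and the decoction cannot be told apart. Poly-A RNA of each heart was sequenced as 1 library, and the deposited unit is FPKM, fragments normalised to gene length and to sequencing depth. The comparison took in 11380 of 21989 genes listed, those that reached an FPKM of 1 in 3 or more of the 9 hearts. Among them, 230 genes (2.02%) had 6 operated values that all lay beyond the 3 sham values, 108 of them higher and 122 lower. How many genes would meet this rule in a random order of the hearts was not worked out, so the count itself shows no effect.

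A narrowed aorta makes the left ventricle pump against a raised pressure, and its muscle cells thicken. Loaded heart muscle is known to switch genes of the fetal heart back on, among them skeletal actin and the natriuretic peptides. Fibroblasts between the muscle cells become activated under load and lay down collagen, proteoglycans and matricellular proteins, while genes of fat oxidation and of ion channels are often reduced in the failing heart.

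Library totals recovered from the FPKM values lay between 7.41 and 18.1 M fragments, with 14.5 to 18.1 M in sham, 8.39 to 14.8 M in TAC and 7.41 to 18.0 M in LD. At 1 kilobase, 3 fragments correspond to an FPKM between 0.166 and 0.405. Muscle genes identify the tissue as heart: sarcomere genes summed to between 53021 and 101296 FPKM in every library, and none of 10 lung and airway markers reached the filter. The median within-group SD of log2 values was 0.25 in sham, 0.39 in TAC and 0.33 in LD, and TAC replicate 3 and LD replicate 3 lay at opposite ends of the first principal component (-51.0 and 48.3, 29.4% of the variance). In 4 libraries (sham replicates 1 and 3, TAC replicates 2 and 3) between 86.6% and 91.4% of the recovered counts of low genes were even numbers, against 47.9% to 51.7% in the other 5, which include all LD hearts. The sources used here do not say how the libraries came to differ in this way. Totals and fragment counts given for the 4 libraries with mostly even counts may be too high, which was not tested. With this class as a term, the fit across all genes called 0 genes for the class itself, and 221 had an unadjusted p under 0.05.

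The genes that separated operated from sham hearts most clearly encode secreted matrix proteins and skeletal actin. Tested with limma on log2(FPKM + 1) and Benjamini-Hochberg adjustment over all 11380 genes, 3 genes rose (0.0264% of those tested) and 0 fell, and 508 genes had an unadjusted p under 0.05 (4.46%), 217 of them higher (1.91%) and 291 lower (2.56%). With median-of-ratios scaling the latter were 272 higher and 246 lower. Where no gene differs, a share of about 0.05 is expected at an unadjusted p under 0.05, and 4.46% does not exceed it. The genes that rose were Comp, Wisp2 and Acta1. A log2 difference is given below as operated minus sham, with limma's standard error, where both operated groups weigh equally. The plot of all genes shows where these 3 lie among the rest.

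**Figure D1:**
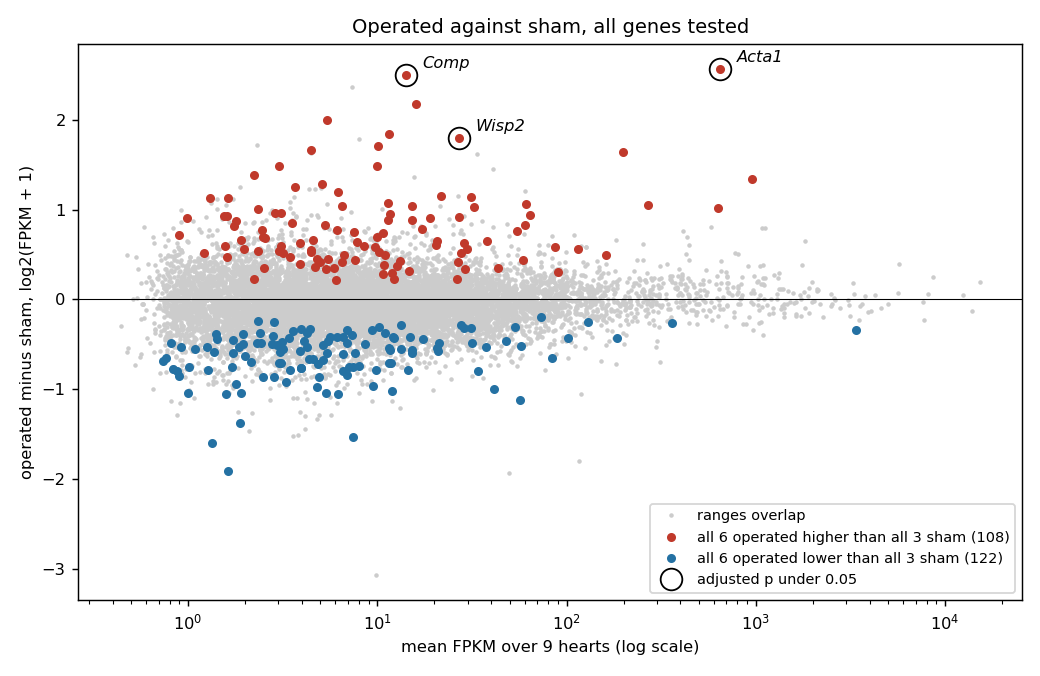
Each point is 1 of the 11380 genes, with its mean FPKM over 9 hearts on a log axis and the operated minus sham difference of log2(FPKM + 1) on the vertical axis; red and blue mark the 108 and 122 genes whose 6 operated values all lay above or below all 3 sham values, and circles mark adjusted p under 0.05. The circled genes Comp, Wisp2 and Acta1 lie among the highest differences, and blue points reach down to -1.91.

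Comp encodes cartilage oligomeric matrix protein, a pentameric protein that binds collagen fibrils (chromosome 8, 70373548 to 70382066 on GRCm38.p6, per RefSeq). It stood at 1.46, 3.15 and 3.23 FPKM in sham, at 13.9, 30.5 and 15.7 in TAC and at 15.1, 14.3 and 30.3 in LD. All 6 operated hearts were far above the sham hearts, and both operated groups contained 1 heart near the upper end. The log2 difference was 2.50 ± 0.32 (adjusted p = 0.0162), a 7.63-fold difference of mean FPKM. These values rest on 80 to 146 fragments in sham and 340 to 1475 in operated hearts. TAC and LD hearts each differed from the shared sham hearts by 2.50 and 2.49.

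Wisp2 encodes a secreted matricellular protein that lacks the C-terminal domain of its relatives and is now called Ccn5 (chromosome 2, 163820752 to 163833146). Its FPKM was 10.4, 8.69 and 9.00 in sham, 24.0, 34.4 and 49.3 in TAC and 36.7, 29.1 and 40.8 in LD. The sham hearts were close together, and every operated heart lay well above them. The difference was 1.79 ± 0.24 on the log2 scale (adjusted p = 0.0162), or 3.81-fold.

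Acta1 encodes skeletal alpha-actin, the actin of fetal heart muscle that returns under load (chromosome 8, 123891758 to 123894775). It reached 133, 195 and 99.1 FPKM in sham, 377, 980 and 1475 in TAC and 660, 595 and 1341 in LD. TAC replicate 1 was the lowest operated heart, and replicate 3 was the highest of its group in both TAC and LD. The difference was 2.56 ± 0.38 (adjusted p = 0.0421), or 6.37-fold. Within libraries of the same even-count class the difference was 3.38 (TAC replicates 2 and 3 against sham replicates 1 and 3) and 1.77 (the other operated hearts against sham replicate 2), where Comp had 2.83 and 2.15 and Wisp2 1.98 and 1.77.

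Comp, Wisp2 and Acta1 kept adjusted p under 0.05 in 18, 16 and 12 of 22 alternative settings, and in none of the 3 that left out a single sham heart. Without sham replicate 1, 2 or 3, 0 genes were called higher, while their log2 differences over all leave-outs stayed between 2.24 and 2.63, between 1.61 and 1.92 and between 2.17 and 2.84. Without TAC replicate 1, 7 genes were called higher and 1 lower; without LD replicate 1 or LD replicate 3, 1 was called higher.

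The other 9 higher genes named here have the smallest p among those without overlap. None of these 9 passed the adjusted threshold, and they belong to the 108 higher genes (0.949% of those tested). Fmod, Cilp, Bgn and Pcolce2 among them encode matrix proteins or a factor of collagen processing. Fmod, which encodes the small collagen-binding proteoglycan fibromodulin, was at 0.965, 1.40 and 1.08 FPKM in sham, 4.79, 11.1 and 4.53 in TAC and 3.91, 6.54 and 5.66 in LD (1.66 ± 0.29, adjusted p = 0.119). Cilp, cartilage intermediate layer protein, was at 4.20, 2.82 and 3.46 in sham, 9.34, 27.2 and 47.2 in TAC and 13.1, 12.3 and 24.8 in LD (2.18 ± 0.39, adjusted p = 0.135). In both genes the lowest operated heart lay well above the highest sham heart, and the TAC hearts were spread more widely than the LD hearts.

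Bgn, which encodes the proteoglycan biglycan, was far more abundant, with 158, 151 and 145 FPKM in sham, 277, 530 and 407 in TAC and 250, 248 and 263 in LD (1.05 ± 0.21, adjusted p = 0.196). The LD hearts were nearly alike and lay below every TAC heart. Fibin, a secreted protein gene, stood between 2.73 and 3.84 FPKM in sham and between 6.10 and 24.9 in operated hearts, with a median of 15.3 (1.84 ± 0.35). Sfrp2, a secreted Wnt antagonist, ranged from 0.295 to 1.60 in sham and from 3.19 to 17.9 in operated hearts, with a median of 4.36 (2.0 ± 0.46). Pcolce2, an enhancer of procollagen processing, had 6.98 to 10.4 in sham and 14.4 to 21.9 in operated hearts, with a median of 18.7 (1.04 ± 0.22). The operated hearts kept clear of sham in all of these, and TAC replicate 1 was the lowest operated heart for Fibin and Sfrp2.

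The remaining 3 of these higher genes have other roles. Ankrd1, a stretch-responsive cofactor in heart muscle, stood at 336, 604 and 427 FPKM in sham, 609, 814 and 1763 in TAC and 1370, 978 and 1668 in LD (1.34 ± 0.31). TAC replicate 1 exceeded sham replicate 2 only narrowly. Serpina3n, a secreted protease inhibitor of the acute phase, was at 4.73, 6.30 and 7.23 in sham, 13.8, 12.2 and 9.24 in TAC and 15.1, 18.3 and 15.4 in LD (1.07 ± 0.22). Dbp, a transcription factor of the circadian output, was at 2.63, 2.98 and 5.44 in sham, 7.22, 8.66 and 6.90 in TAC and 27.4, 12.4 and 16.3 in LD (1.48 ± 0.28). For Dbp every LD heart was above every TAC heart, and the labels give no hour of collection.

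**Figure D2:**
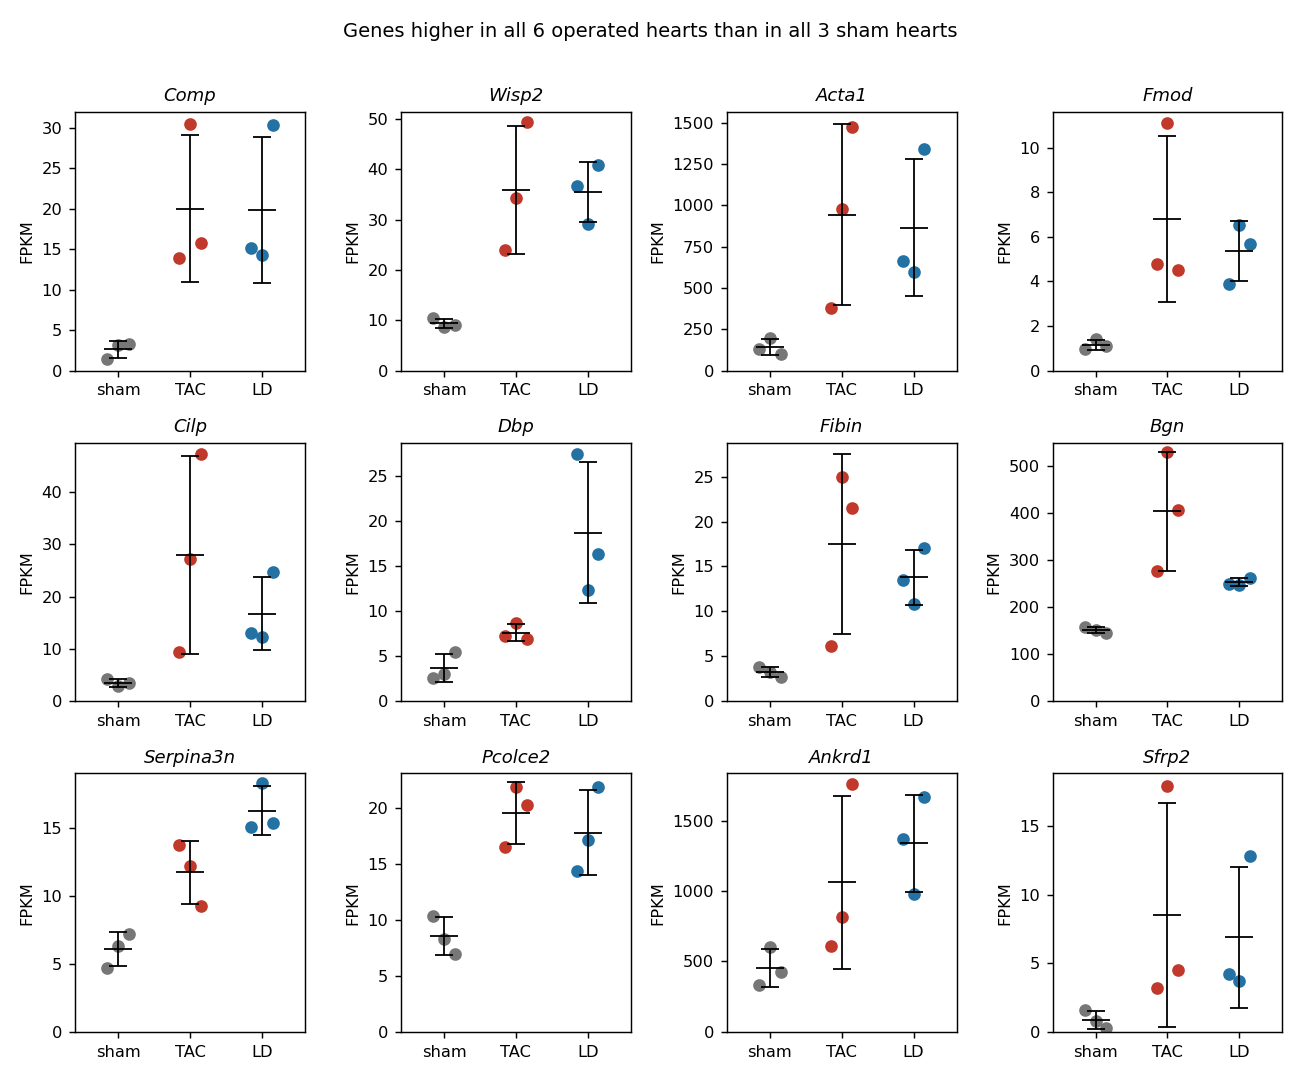
FPKM of the 12 named higher genes in each heart, by group (3 sham, 3 TAC, 3 LD), on linear axes that start at 0; horizontal marks are group means and bars are SDs over 3 hearts. All operated points lie above all sham points, with Acta1 between 377 and 1475 in operated hearts and Comp between 13.9 and 30.5.

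The promoters of 5 higher genes are shown as examples, Acta1, Ankrd1 and Nppa of the stretch programme and Fmod and Cilp of the matrix. Comp and Wisp2 are not shown. Each line is the 250 bases before the RefSeq start on the gene's strand (GRCm38.p6): Acta1 at chr8:123894776-123895025 (minus), Ankrd1 at chr19:36119845-36120094 (minus), Nppa at chr4:148000472-148000721 (plus), Fmod at chr1:134037004-134037253 (plus) and Cilp at chr9:65264930-65265179 (plus). Capitals mark the MCAT motif CATTCC (or GGAATG on the other strand), the CArG box bound by serum response factor, and TATAA.
Acta1: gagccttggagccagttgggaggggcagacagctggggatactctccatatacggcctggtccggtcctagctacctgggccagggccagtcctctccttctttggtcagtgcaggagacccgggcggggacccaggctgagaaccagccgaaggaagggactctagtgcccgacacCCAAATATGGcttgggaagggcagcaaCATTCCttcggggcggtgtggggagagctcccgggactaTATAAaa
Ankrd1: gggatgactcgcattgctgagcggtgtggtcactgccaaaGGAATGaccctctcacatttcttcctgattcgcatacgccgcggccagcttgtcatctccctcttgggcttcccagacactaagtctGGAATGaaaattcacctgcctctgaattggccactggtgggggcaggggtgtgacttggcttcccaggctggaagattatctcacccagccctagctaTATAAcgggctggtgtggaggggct
Nppa: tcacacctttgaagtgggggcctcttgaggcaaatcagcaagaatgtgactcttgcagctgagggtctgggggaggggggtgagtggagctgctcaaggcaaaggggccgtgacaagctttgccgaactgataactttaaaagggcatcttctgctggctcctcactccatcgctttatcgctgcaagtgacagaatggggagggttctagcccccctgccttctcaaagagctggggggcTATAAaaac
Fmod: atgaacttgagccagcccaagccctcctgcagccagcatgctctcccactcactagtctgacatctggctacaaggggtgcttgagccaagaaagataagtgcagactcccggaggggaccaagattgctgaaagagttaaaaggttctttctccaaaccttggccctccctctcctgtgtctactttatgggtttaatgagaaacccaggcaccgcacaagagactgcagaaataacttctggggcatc
Cilp: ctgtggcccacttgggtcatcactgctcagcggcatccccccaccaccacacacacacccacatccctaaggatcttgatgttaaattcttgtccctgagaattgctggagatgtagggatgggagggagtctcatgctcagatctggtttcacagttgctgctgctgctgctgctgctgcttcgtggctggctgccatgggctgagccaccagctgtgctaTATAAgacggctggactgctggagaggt

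The Acta1 window held a CArG box 73 to 64 bases and an MCAT motif 46 to 41 bases before the start, and the Ankrd1 window held 2 MCAT motifs, at 210 to 205 and 123 to 118 bases. No exact MCAT motif or CArG box was found in the windows of Nppa and Cilp, which held TATAA at 9 to 5 and 28 to 24 bases. None of the 3 motifs was found in the Fmod window. Only exact matches were searched, so sites that differ from a motif by a base would be missed. Over windows of 300 bases (250 before to 50 after the start), searched on both strands, 14.1% of the 85 higher genes with a promoter entry held MCAT, against 11.1% of 99 lower genes and 11.8% of all 9117 genes. A CArG box occurred in 3.53% (3 genes), 1.01% and 1.36%, and TATAA in 16.5%, 16.2% and 13.3%. These shares are a description of letters in the windows.

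Lower genes without overlap were 122 (1.07% of those tested), and 0 of them passed. Their median mean level over the 9 hearts was 5.03 FPKM, against 8.14 for the higher genes. Of the lower genes 50% lay under 5 FPKM, where 38.5% of all genes did. As 6 of the 9 hearts are operated, the direction of a difference itself shifts this level, so it does not compare abundance before the operation. Differences of at least 1 on the log2 scale numbered 11, against 28 among the higher genes. Hist1h3d, a replication-dependent histone H3 gene, had the largest difference (-1.91 ± 0.32, adjusted p = 0.0981). It stood at 4.82, 4.24 and 3.20 FPKM in sham, 0.944, 0 and 0 in TAC and 1.07, 0.439 and 0 in LD. All operated hearts were near the floor: the values rest on 24 to 44 fragments in sham and 0 to 4 in operated hearts. Poly-A selection captures such histone transcripts poorly, and histone genes share near-identical copies, so its reads may be split among them.

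The other lower genes named have varied roles. Rgs2, a regulator that limits Gq-coupled receptor signalling, was at 9.91, 10.1 and 9.11 FPKM in sham, 4.31, 5.09 and 1.82 in TAC and 6.53, 5.13 and 3.48 in LD (-1.05 ± 0.28, adjusted p = 0.706). The sham hearts were tight, and the highest operated heart stayed well below them. Phkg1, the catalytic subunit of muscle phosphorylase kinase, had 11.9, 11.3 and 15.9 in sham, 10.5, 4.27 and 3.31 in TAC and 5.08, 4.29 and 0.475 in LD (-1.53 ± 0.42). Here TAC replicate 1 was close to sham and LD replicate 3 was lowest. Ppp1r3b, a glycogen-targeting subunit of protein phosphatase, ranged from 4.20 to 6.50 in sham and from 1.48 to 3.55 in operated hearts, with a median of 2.03 (-0.92 ± 0.27). Phkb, another phosphorylase kinase subunit, also had no overlap (-0.38) and was chosen after its values were seen.

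Cmtm5, a membrane protein gene, ranged from 6.00 to 9.74 FPKM in sham and from 2.13 to 4.27 in operated hearts, with a median of 3.49 (-0.97 ± 0.23). Nle1, a gene of ribosome assembly, ranged from 16.4 to 21.2 and from 6.08 to 14.1, with an operated median of 7.99 (-1.02 ± 0.25). Tmem82, a membrane protein gene, ranged from 71.4 to 112 in sham and from 23.6 to 69.7 in operated hearts, with a median of 34.2 (-1.12 ± 0.32). In Tmem82 the highest operated heart lay just under the lowest sham heart. Cryba4, a crystallin gene, ranged from 19.1 to 20.7 and from 5.55 to 15.4, and Rrnad1 from 12.7 to 17.0 and from 4.12 to 9.09. Batf, a transcription factor of immune cells, was at 2.53 to 4.80 in sham and 0 to 2.38 in operated hearts. Dram1, a regulator of autophagy, and Zfp934, a zinc finger gene, had operated medians of 1.07 and 0.343 FPKM. Zfp934 rests on as few as 2 fragments in 1 operated heart.

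**Figure D3:**
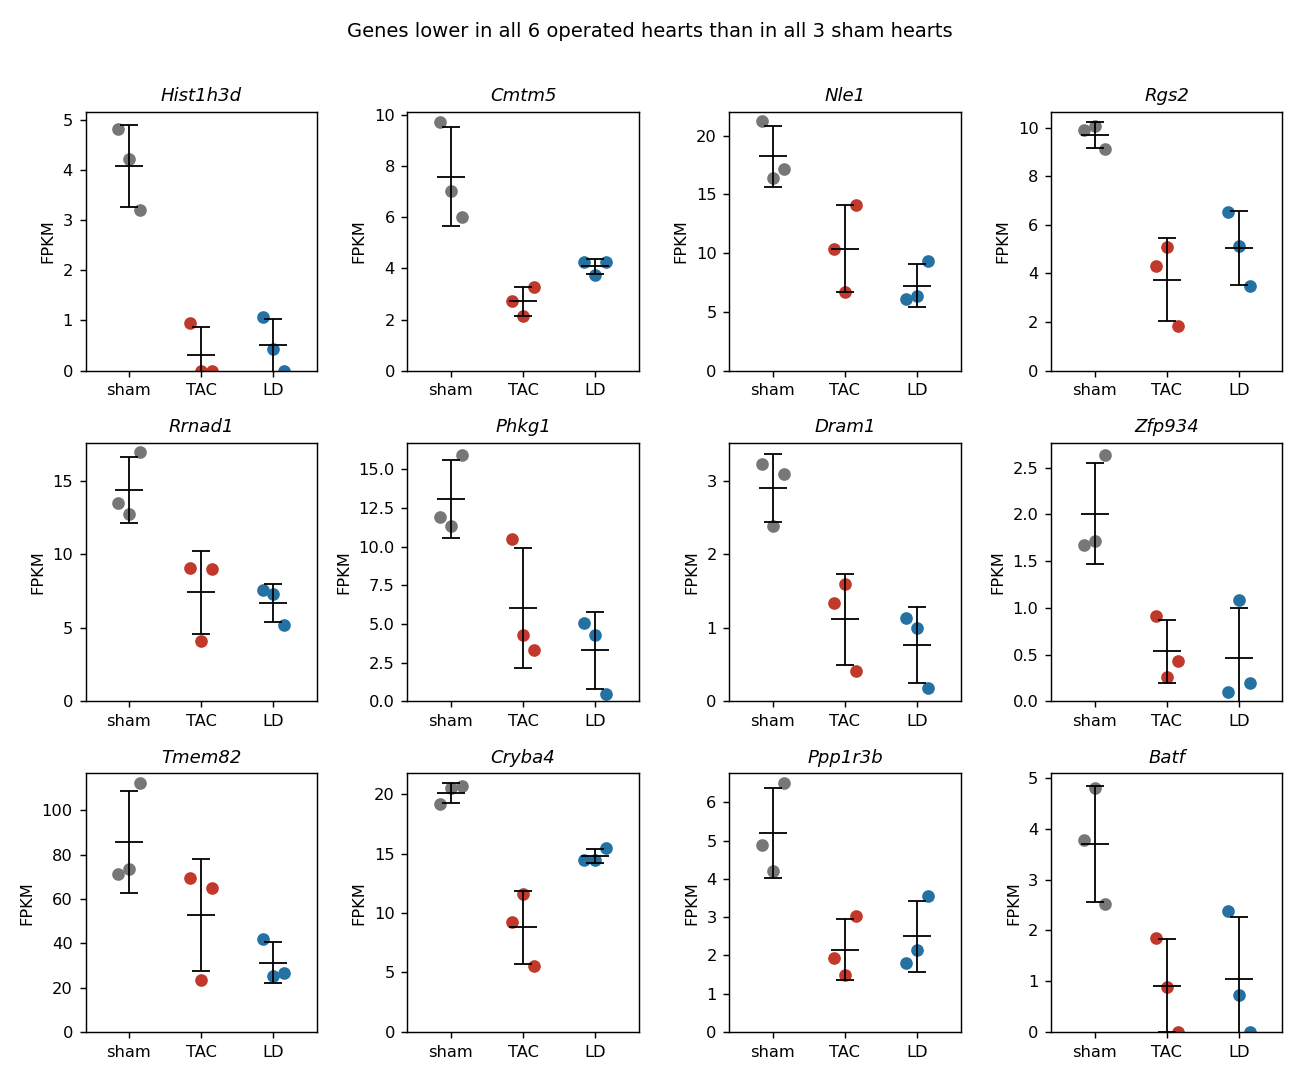
FPKM of the 12 named lower genes in each heart, by group (3 sham, 3 TAC, 3 LD), on linear axes that start at 0, with group means and SDs over 3 hearts (bars end at 0). Every operated point lies below every sham point, and Hist1h3d is at 0 in 3 operated hearts.

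Both directions shared a moderate size. The median difference was 0.67 among the 108 higher genes (0.22 to 2.56) and -0.55 among the 122 lower genes (-0.20 to -1.91), where the median of all tested genes was -0.06. Of the higher genes 78 and of the lower genes 69 had an unadjusted p under 0.05 in limma, where 4.46% of all genes did. The rule and this p-value use the same values, so these counts are no independent support. At the border of the rule, Lhfp and Capg lay just inside: Lhfp had 16.8 FPKM in its highest sham heart and 16.8 in its lowest operated heart, a gap of 0.0041 on the log2 scale, and Capg had 13.3 and 13.4 (0.0044). Just outside lay Hist1h1e and Sfrp4, at 0 in all sham hearts and also at 0 in 1 and 2 operated hearts. Exons of another gene overlapped 39.3% of the higher and 43.8% of the lower genes, against 36.9% of all tested, and the library preparation named no step that marks the strand.

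Among fibroblast genes, the mean log2 values of the activated and of the resident list stood above sham in every operated heart, while their summed FPKM overlapped. Of 24 measured genes of activated fibroblasts, 21 had a difference above 0 and 3 below, with a median of 0.72, where 41.2% of all genes were above 0 with a median of -0.06. Without overlap were 6, all higher: Comp, Wisp2, Cilp, Sfrp2, Ltbp2 and Thbs2. Over all genes tested, 0.949% were higher without overlap. This list and those below were chosen with earlier results of these data known, so their counts are no independent support for the genes named above. The list's mean, relative to the sham mean on the log2 scale, was 0.16, 0.02 and -0.18 in sham, 0.45, 1.29 and 1.28 in TAC and 0.87, 0.54 and 0.96 in LD. TAC replicate 1 was nearest to sham, and the groups did not overlap on this scale. Summed FPKM of the list was 398 to 619 in sham and 551 to 930 in operated hearts. Its median was 1.45 within the even-count class and 0.50 within the other class. Ltbp2, a latent TGF-beta binding protein, was at 0.304 to 1.44 FPKM in sham and 1.93 to 8.80 in operated hearts, with a median of 3.64 (1.48 ± 0.36). Postn, the periostin gene of activated fibroblasts, overlapped: it was at 21, 9.86 and 7.70 in sham, 11.4, 41.7 and 194 in TAC and 26.1, 15.0 and 38.9 in LD (1.45 ± 0.62), and its difference was 0.94 without TAC replicate 3.

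All 20 measured resident fibroblast genes lay above 0 (median 0.39), where 41.2% of all genes did. Mgp, matrix Gla protein, an inhibitor of calcification, was at 348, 431 and 322 FPKM in sham, 603, 1059 and 704 in TAC and 520, 1005 and 690 in LD (1.02 ± 0.24). Pi16, a marker of adventitial fibroblasts, was at 46.3, 34.7 and 30.6 in sham, 50.5, 68.1 and 72.3 in TAC and 53.9, 55.7 and 82.5 in LD (0.76 ± 0.22). Neither passed the adjusted threshold. The resident list's mean was -0.05 to 0.07 in sham and 0.18 to 0.79 in operated hearts, and its summed FPKM was 1569 to 1871 and 1848 to 3365. Within the even-count class the median was 0.51, and within the other class 0.20. In bulk tissue, more fibroblasts and more RNA per fibroblast cannot be told apart.

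Small leucine-rich proteoglycans, which bind collagen fibrils and space them, had 8 of 9 members above 0 with a median of 0.60, and Fmod and Bgn without overlap. Over all genes tested, 41.2% lay above 0 and 0.949% were higher without overlap. Fmod and Bgn were already named above by that rule. The proteoglycan list mean was 0.21, 0.04 and -0.26 in sham, 0.41, 1.44 and 1.17 in TAC and 0.34, 0.40 and 0.28 in LD. The 4 lowest operated hearts, TAC replicate 1 and the LD hearts, lay close above sham replicate 1. The median was 0.27 without sham replicate 3, and it was 1.05 in TAC and 0.12 in LD against the shared sham hearts. Within the even-count class, whose operated hearts are TAC replicates 2 and 3, it was 1.61, and within the other class 0.27. The test of LD against TAC itself had 0 genes past the adjusted threshold (1004 with an unadjusted p under 0.05, 8.82%).

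Among the collagens no difference passed. For the counts that follow, 41.2% of all genes tested lay above 0 and 0.949% were higher without overlap. Fibrillar and elastic matrix genes had 21 of 26 above 0 with a median of 0.21, which ranged from 0.12 (sham replicate 2 left out) to 0.40 (sham replicate 1 left out), with 0.39 when TAC replicate 1 was left out. It was 0.71 within the even-count class and 0.18 within the other class. Only Mfap4, a microfibril-associated protein, had no overlap, at 17.8, 14.3 and 15.4 FPKM in sham, 32.9, 76.0 and 33.2 in TAC and 23.3, 34.1 and 33.1 in LD (1.14 ± 0.27). Col1a1 was at 15.3, 11 and 14.1 in sham and 10.4 to 22.1 in operated hearts (0.18 ± 0.25). Col3a1 was at 56.3, 27.7 and 27.6 in sham and 20.2 to 94.6 in operated hearts (0.06 ± 0.36). Both collagens overlapped fully, and Col3a1 kept its sign in 16 of 22 alternatives and Col1a1 in 21. Basement membrane genes were evenly placed, 9 above and 9 below 0 (median -0.01, between -0.16 without sham replicate 2 and 0.14 without sham replicate 1). Collagen processing genes had 12 of 21 above 0 (median 0.08, and -0.05 without sham replicate 2), with Pcolce2 and the cross-linking enzyme gene Loxl1 (0.61 ± 0.23) without overlap. The collagen processing median was 0.16 in TAC and -0.12 in LD.

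TGF-beta and BMP genes, the pathway that activates fibroblasts, were mixed, with 19 of 30 above 0 and a median of 0.05. The median was 0.24 in TAC and -0.07 in LD for these genes. Those without overlap were ligands and a ligand carrier: Tgfb2 (0.51 ± 0.23), Tgfb3 (0.58 ± 0.24) and Ltbp2. Tgfb2 was at 2.03 to 2.36 FPKM in sham and 2.85 to 4.52 in operated hearts. Tgfb3 was at 5.72 to 8.02 and 8.48 to 18.4. In the protease list, 14 of 25 members were above 0 (median 0.08, between 0.03 without LD replicate 2 and 0.11 without TAC replicate 1). The protease median was 0.25 in TAC and -0.08 in LD. Timp2, a metalloprotease inhibitor without overlap, was at 20.7 to 22.3 FPKM in sham and 23.9 to 38.4 in operated hearts (0.41 ± 0.20). Its sham hearts were nearly equal. The list medians moved with single hearts: the TGF-beta median was 0.14 without sham replicate 1. Over all genes tested, 41.2% lay above 0 and 0.949% were higher without overlap.

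Markers of other cell types were examined beside the matrix lists, and their part in these results was not tested. Macrophage markers (14 of 16 measured) had a median of 0.07 and summed to 227 to 354 FPKM in sham and 248 to 371 in operated hearts. Endothelial markers (16 of 17) had a median of -0.01, with sums of 4046 to 5102 and 3718 to 5664. Smooth muscle markers (14 of 14) had a median of 0.08 and pericyte markers (11 of 11) 0.17. The summed ranges of macrophage and endothelial markers overlapped. Leaving out 1 library moved the macrophage median between 0.01 (TAC replicate 3) and 0.16 (LD replicate 3), and the endothelial median between -0.04 (LD replicate 2) and 0.04 (LD replicate 3). The smooth muscle median moved between -0.0014 (LD replicate 1) and 0.17 (sham replicate 2), and the pericyte median was 0.04 with sham replicate 3 left out. Epicardial markers, of which 5 of 14 were measured, summed to 28.6 to 34.0 FPKM in sham and 35.6 to 50.6 in operated hearts, without overlap, while their mean log2 values overlapped. Erythroid markers (8 of 11) all lay above 0, where 41.2% of all genes did. Their median was 0.76, which was 0.09 without sham replicate 1, 0.35 without TAC replicate 2 and 1.29 without sham replicate 3. The erythroid sums ranged from 518 to 3365 in sham and from 1214 to 11190 in operated hearts.

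Heart muscle genes of the fetal and stretch programme were above sham in every operated heart by both their mean log2 value and their summed FPKM (3016 to 3644 in sham, 3829 to 8765 in operated hearts). Of 23 measured, 18 lay above 0 (median 0.49), and 5 had no overlap: Acta1, Ankrd1, Nppa, Synpo2l and Xirp2. Of all genes tested, 41.2% lay above 0 and 0.949% were higher without overlap. The list mean was -0.02 to 0.02 in sham, 0.12, 0.48 and 0.75 in TAC and 0.37, 0.30 and 1.20 in LD. LD replicate 3 was highest, and without it the median was 0.29. Within the even-count class it was 0.73 and within the other class 0.34. Nppa, the atrial natriuretic peptide gene, was at 59.7, 68.8 and 88.4 FPKM in sham, 91.5, 220 and 447 in TAC and 188, 159 and 477 in LD (1.64 ± 0.42, adjusted p = 0.704). TAC replicate 1 lay just above the highest sham heart. Nppb, its relative made in the loaded ventricle, was at 22.5, 37.3 and 26.6 in sham, 35.8, 72.4 and 71.5 in TAC and 42.3, 63.7 and 170 in LD (1.21 ± 0.37), and TAC replicate 1 overlapped sham replicate 2.

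Synpo2l, a sarcomere-associated protein gene, was at 16.2 to 19.7 FPKM in sham and 22.1 to 67.9 in operated hearts, with a median of 38.9 (1.03 ± 0.27). Nrap, which anchors new myofibrils, was at 76.8, 85.2 and 95.1 in sham, 104, 104 and 102 in TAC and 138, 139 and 197 in LD (0.56 ± 0.19). The LD hearts lay above the TAC hearts for Nrap. The sarcomere list, which includes Nrap, had a median of 0.13 over 26 genes, which became 0.05 when LD replicate 3 was left out and 0.08 when sham replicate 1 was. LD replicate 3 stood apart, with a list mean of 0.46 and a sum of 101296 FPKM where the highest sham heart had 67393. Atrial markers (10 of 15 measured) had a median of -0.14 with 6 below 0 (0.04 without TAC replicate 3 and -0.05 without LD replicate 3), and they include Nppa. Their sum was 190 to 212 FPKM in sham and 213 to 697 in operated hearts, while Bmp10 was at 0 in all hearts. Their part in the Nppa values was not tested.

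The myosin switch, from the adult alpha chain (Myh6) to the fetal beta chain (Myh7), was not shared by both operated groups. Myh6 was at 3932, 3917 and 3448 FPKM in sham, 2673, 2240 and 2896 in TAC and 3592, 3250 and 5488 in LD (operated minus sham -0.22 ± 0.21). Myh7 was at 257, 241 and 328 in sham, 325, 236 and 383 in TAC and 631, 376 and 1102 in LD (0.70 ± 0.29). All TAC hearts lay below sham for Myh6 and all LD hearts above sham for Myh7, and the other operated group overlapped sham in each case. LD minus TAC was 0.63 (95% interval 0.12 to 1.14) for Myh6 and 1.05 (0.34 to 1.76) for Myh7, and neither passed the adjusted threshold. Atp2a2, the calcium pump of the sarcoplasmic reticulum, overlapped (-0.30 ± 0.20).

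**Figure D4:**
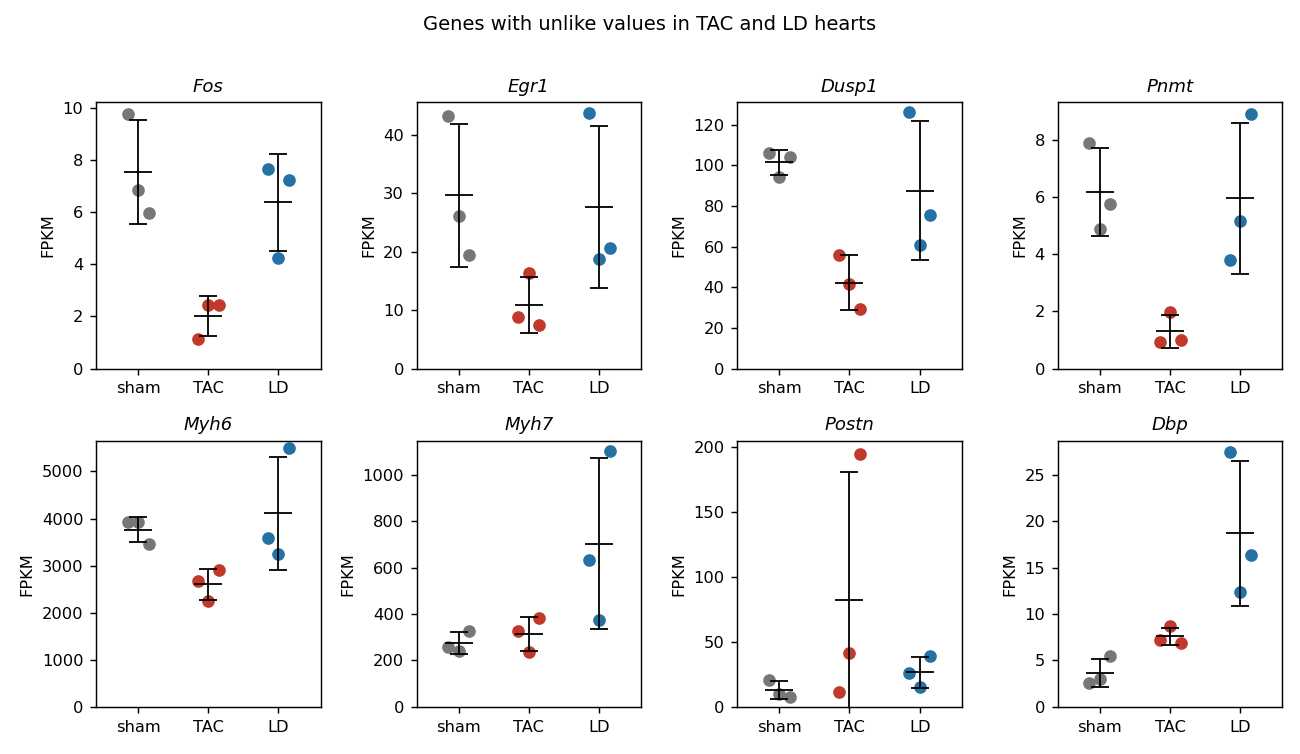
FPKM in each heart of 8 genes that had unlike values in TAC and LD hearts or that overlapped sham, on linear axes that start at 0, with group means and SDs over 3 hearts (bars end at 0). Fos, Egr1, Dusp1 and Pnmt are low in the 3 TAC hearts, Myh7 and Dbp are high in the 3 LD hearts, and Postn reaches 194 in TAC replicate 3.

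Immediate early genes, which answer a stimulus within minutes, leaned below sham in the pooled comparison with 22 of 31 below 0 (58.8% of all genes were below 0) and a median of -0.29. Leaving out sham replicate 1 gave a median of -0.16, TAC replicate 1 gave -0.17 and LD replicate 2 gave -0.18. Against the shared sham hearts the list median was -0.20 in TAC and -0.28 in LD, so the list was not lower in TAC alone. The list mean was -0.55, -0.18 and -0.25 in TAC and 0.17, -0.49 and -0.28 in LD. Fos was at 9.79, 6.84 and 5.97 FPKM in sham, 1.14, 2.44 and 2.45 in TAC and 7.65, 4.26 and 7.23 in LD (-0.87 ± 0.27). Egr1 was at 43.2, 26.2 and 19.5 in sham, 8.79, 16.4 and 7.41 in TAC and 43.6, 18.7 and 20.6 in LD (-0.74 ± 0.33, and -0.44 without sham replicate 1). Both were low in TAC hearts, while LD hearts overlapped sham.

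Dusp1, a phosphatase that switches off MAP kinases, had the same shape, with 106, 94.2 and 104 FPKM in sham, 56.0, 41.5 and 29.3 in TAC and 126, 60.9 and 75.7 in LD (-0.78 ± 0.25). Pnmt, which forms adrenaline, was at 7.89, 4.88 and 5.75 in sham, 0.938, 1.97 and 1.01 in TAC and 3.79, 5.17 and 8.91 in LD (-0.87 ± 0.28). LD minus TAC was 1.29 (95% interval 0.62 to 1.97) for Fos, 1.24 (0.43 to 2.06) for Egr1, 1.01 (0.38 to 1.64) for Dusp1 and 1.56 (0.85 to 2.26) for Pnmt, none past the adjusted threshold. Within the immediate early list, 2 genes had no overlap in the pooled comparison, as did 2.02% of all genes tested. Gadd45b, a stress-response gene, was at 13.3, 16.7 and 17.5 in sham and 19.4 to 61.7 in operated hearts (0.92 ± 0.27). Rhob, a small GTPase gene, was at 114 to 129 in sham and 74.4 to 107 in operated hearts (-0.43 ± 0.19). Neither passed.

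Some lists of energy supply lay slightly below sham, and others did not. Of all genes tested, 58.8% lay below 0, and 1.07% were lower and 0.949% higher without overlap. The median was -0.01 for glucose use, 0.01 for branched-chain and ketone catabolism and -0.04 for creatine energy transfer, and the tricarboxylic acid cycle had 9 genes above and 10 below 0. Of 18 measured metabolic regulators 17 were below 0 (median -0.24), led by Ppargc1b (-0.62), Esrra (-0.51) and Sirt1 (-0.51), 3 members chosen after their values were seen, though 0 of the 18 had no overlap and 0 passed. The list mean was -0.05 to 0.05 in sham and -0.57 to -0.12 in operated hearts, lowest in LD replicate 3. Summed FPKM of the regulators overlapped, at 284 to 331 in sham and 209 to 292 in operated hearts. Fatty acid oxidation genes had 27 of 33 below 0 (median -0.19), which was -0.31 without sham replicate 3 and -0.11 without LD replicate 1. Against the shared sham hearts the fatty acid oxidation median was -0.26 in TAC but -0.03 in LD, where all genes had -0.11 in LD. Acsl1, which activates long-chain fatty acids, was their gene without overlap, at 63.3, 63.3 and 57.9 FPKM in sham, 52.2, 52.6 and 56.9 in TAC and 46.3, 44.6 and 44.9 in LD (-0.31 ± 0.17). Oxidative phosphorylation genes were nearer to the median gene, with 59 of 81 below 0 (median -0.06). Their median was -0.19 in TAC and 0.04 in LD, so the lean was not shared. Leaving out 1 library moved the pooled median between 0.01 (sham replicate 2) and -0.11 (sham replicate 3), with -0.0031 for TAC replicate 3, -0.02 for LD replicate 1 and -0.09 for TAC replicate 2. Bdh1, the ketone body dehydrogenase, stood the other way, at 10.9, 9.87 and 6.91 in sham and 12.5 to 27.4 in operated hearts (0.89 ± 0.27). No gene of these lists passed the adjusted threshold.

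Ion channel and connexin genes had 21 of 27 below 0 (median -0.20), with Kcnd3 at -0.77 and Hcn2 at -0.63, again chosen after their values were seen. None of the 27 was free of overlap, yet the list mean was -0.10 to 0.16 in sham and -0.39 to -0.17 in operated hearts, a separation of the means by a narrow margin. Calcium handling genes had 16 of 19 below 0 (median -0.13, and -0.05 without LD replicate 3). Neurohormonal genes had 16 of 23 below 0 (median -0.23, and -0.12 without LD replicate 3). Their summed FPKM overlapped, at 193 to 222 in sham and 147 to 210 in operated hearts. Without overlap among the neurohormonal genes were Rgs2, the muscarinic receptor gene Chrm2 and, higher, the adrenergic receptor gene Adra1a. Chrm2 was at 6.64 to 7.25 FPKM in sham and 3.82 to 6.17 in operated hearts (-0.42 ± 0.22). Adra1a was at 1.83 to 1.89 and 1.93 to 3.07 (0.23 ± 0.24). Over all genes tested, 58.8% lay below 0, and without overlap were 1.07% lower and 0.949% higher. With median-of-ratios scaling, 48.5% of all genes lay above 0 in place of 41.2%, so part of such a lean depends on the scale.

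**Figure D5:**
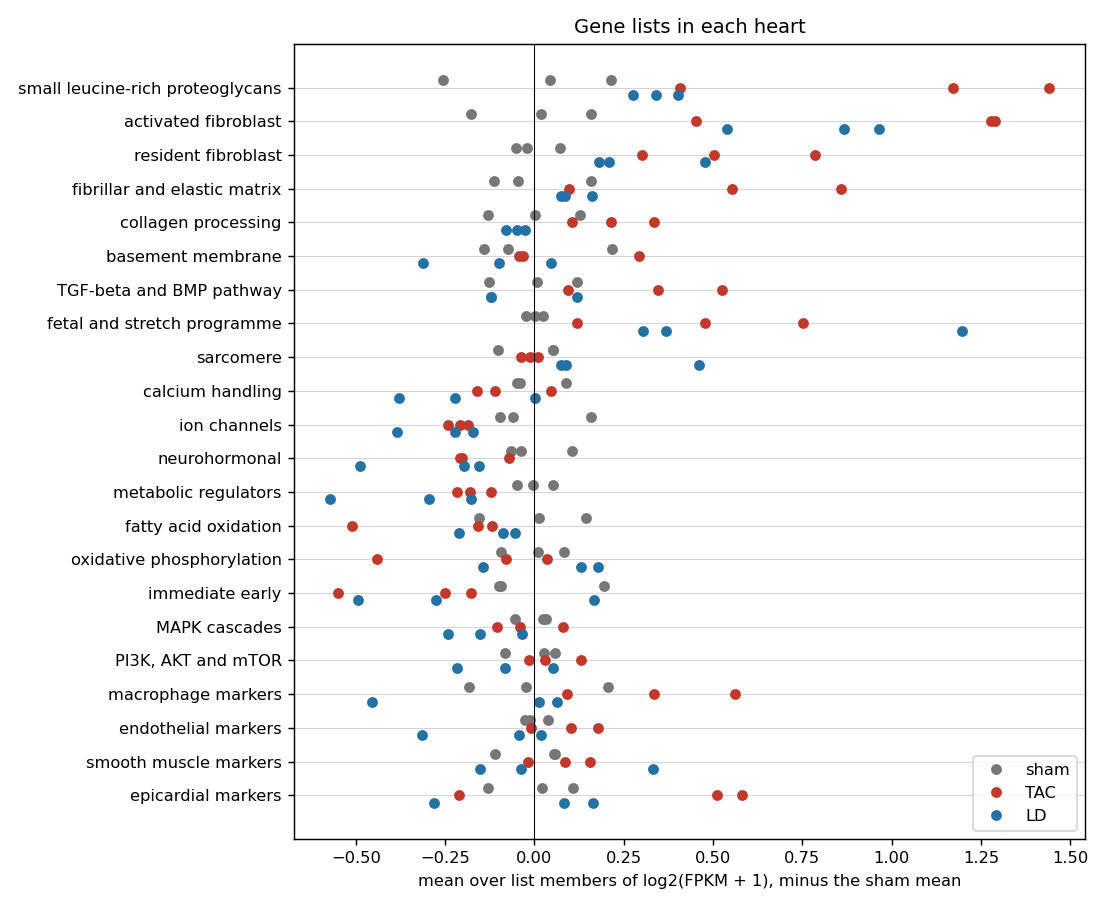
Each point is 1 heart: the mean over the measured members of a gene list of log2(FPKM + 1), minus the mean of the 3 sham hearts, in grey for sham, red for TAC and blue for LD. The proteoglycan, fibroblast and fetal lists lie above sham in all 6 operated hearts, ion channel, neurohormonal and metabolic regulator lists lie below, and the other lists overlap. Summed FPKM of the fibroblast, neurohormonal and metabolic regulator lists overlapped between sham and operated hearts.

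The study's title names the MAPK and AKT pathways. At the RNA level in the pooled comparison they were close to sham. Over all genes tested, 58.8% lay below 0 with a median of -0.06, and 1.07% were lower and 0.949% higher without overlap. MAPK cascade genes had 26 of 40 below 0 (median -0.07, and -0.13 without sham replicate 2), and the 2 without overlap were lower: the kinase genes Map2k1, at 14.1 to 15.3 FPKM in sham and 8.26 to 14.0 in operated hearts (-0.42 ± 0.22), and Mapk8, at 5.13 to 5.42 and 3.36 to 4.86 (-0.32 ± 0.22). Mapk3 (-0.01 ± 0.19) and Akt1 (0.12 ± 0.22) overlapped, and Mapk14 was below the filter, at 0.318 to 0.566 in sham and 0.194 to 0.496 in operated hearts. PI3K, AKT and mTOR genes had 19 of 33 below 0 (median -0.01, between -0.12 without sham replicate 1 and 0.03 without LD replicate 3). Phlpp1, a phosphatase that acts on AKT, was higher without overlap (5.00 to 5.33 FPKM in sham, 5.92 to 9.25 in operated hearts; 0.41 ± 0.21), and Irs1, an adaptor of the insulin receptor, was lower (2.07 to 2.96 and 1.12 to 2.06; -0.39 ± 0.23). None of these passed the adjusted threshold, and messenger RNA does not measure phosphorylation.

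Against the shared sham hearts, TAC and LD alone had 0 genes past the adjusted threshold each, with 618 (5.43%) and 581 (5.11%) at an unadjusted p under 0.05. The pooled comparison therefore holds calls that neither operated group gave alone. Of the 108 higher genes 4, and of the 122 lower genes 2, had an unadjusted p under 0.05 between LD and TAC, where 8.82% of all genes did. The rule of no overlap favours genes in which the operated groups are alike, so this is a description. Median differences of the higher genes were 0.74 in TAC and 0.67 in LD on the log2 scale, and those of the lower genes -0.58 and -0.56.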

How the data were processed

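The labels describe 3 biological repeats per group (sham, TAC, LD), poly-T selection of mRNA and random hexamer priming. Per the submitters' processing notes, reads were handled with HISAT2 2.1.0, Cufflinks 2.2.1, CASAVA 1.8, HTSeq 0.7.2, DESeq and fastp 0.20.0 on the build GRCm38, with no role given for each. The authors deposited 1 table of FPKM values for 21989 gene symbols in 9 columns, each matched to a sample by its name. Each value equalled a whole number of fragments times a constant of its gene and library, and all 16262 genes above 0 came out whole within a tolerance of 0.001, which gave library totals of 7.41 to 18.1 M fragments. In 4 libraries the counts of low genes were mostly even, while those of high genes were 52.1% to 55.1% even. The recovered unit there may be less than 1 fragment, so totals and counts of these 4 libraries may be too high. This was not tested, and floors cover counting error only.

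The scale was log2(FPKM + 1), on which differences of low genes are understated. The 11380 genes that reached an FPKM of 1 in 3 or more libraries were fitted in limma 3.58.1 (R 4.3.3) with 1 mean per group, 6 residual degrees of freedom, a trended empirical Bayes step, two-sided tests and Benjamini-Hochberg adjustment at 0.05 over all genes. The contrast was the mean of TAC and LD minus sham. Genes whose ranges do not overlap were counted without a test. The fit was tested on simulated data. The members, lists and named genes were chosen with earlier results of these data known. Named were the genes past the threshold without overlap, filled to 12 per direction by the smallest p, a fixed panel, up to 4 members without overlap of each list described, and 2 genes on each side of the rule; other members of a list are named where a count is 6 or fewer or a list is led by them. Predicted genes were counted only. Some genes picked by this rule are not reported here. Lists with fewer than 5 measured members (neutrophil, T and NK, B, mast and lymphatic cells, and lung) are given by their medians at most, and lists not mentioned in the results had medians between -0.16 and 0.20. Replicate numbers did not pair the libraries. P-values measure the spread between these mice. Promoters came from a RefSeq table (GRCm38.p6), in which 9117 of the tested genes were matched. Alternatives changed the pseudocount, filter, scaling, fit and weights and left out each library; the even-count term was added after seeing the data. Python 3.11.15, numpy 2.4.6, pandas 2.3.3 and matplotlib 3.10.9 were used for counts and plots.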

Additional observations from a re-analysis of the deposited data

Results flagged for a closer look

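Of 73 named genes, 2 had 1 operated heart set apart from the other 5. Such a gap is reached by chance in about 1 of 20 groups, a rate that 2 of 73 does not exceed. Mfap4, a microfibril gene, was at 76.0 FPKM in TAC replicate 2 and at most 34.1 in the other operated hearts, a gap of 0.681 of the range of the 6 hearts. Nox4, an NADPH oxidase gene, was at 9.36 FPKM in TAC replicate 3 and at most 2.86 in the others, a gap of 0.631. Sham hearts had 0.179 to 0.726 FPKM of Nox4, so that all 6 operated hearts were above sham (1.38 ± 0.38, not past the adjusted threshold).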

How the results depend on the processing

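The 3 genes called higher against sham became 19 (with 7 lower) when libraries were weighted, 0 with no filter and 5 with an even-count term, which was added after seeing the data (Wisp2, Cilp, Comp, Acta1 and Fibin). Genes called lower were 1 with a pseudocount of 5. The replicate block gave 3 higher and 1 lower; same-numbered libraries of different groups correlated between -0.236 and 0.146, and 1 of 9 libraries correlated best with its own number. Leaving out 1 library gave 0 to 7 genes higher and 0 to 1 lower. Of TAC against sham, higher and lower calls were 8 and 1 with weights; 2 higher with a filter of 5 FPKM and 4 with voom on recovered fragments; leave-outs gave 0 to 12 higher and 0 to 1 lower. LD against sham had 56 and 79 with weights, 3 higher with the filter of 5 FPKM, 3 higher with voom, and 0 to 8 higher and 0 to 1 lower in leave-outs. The weights were 0.74, 4.74 and 0.40 for LD replicates 1, 2 and 3, so the weighted LD calls rest largely on replicate 2. LD against TAC stayed at 0 in every setting run. Genes without overlap numbered 138 to 266 higher and 164 to 490 lower in leave-outs, 366 and 450 without TAC replicate 3 and LD replicate 3, and 68 lower with the filter of 5 FPKM; the cause was not tested, though fewer libraries make the rule easier to meet and a stricter filter tests fewer genes. Median-of-ratios scaling gave 135 higher and 103 lower, and moved the median gene from -0.06 to -0.01. Genes with an unadjusted p under 0.05 were 42.7% higher, 52.5% with median-of-ratios scaling (272 higher, 246 lower), under which 48.5% of all genes lay above 0 in place of 41.2%, and 27.5% with voom (193 higher, 508 lower). Of 73 named genes, 68 kept their sign in all alternatives. Of 22 alternatives, Acta1 passed in 12. Depth limits low genes such as Hist1h3d, with 0 to 4 fragments in operated hearts.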

Other observations

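Several other genes without overlap, chosen after their values were seen, had differences of the size of the named ones. Itgbl1, an integrin-like secreted protein, differed by 1.28. Scx, a transcription factor of tendon cells, differed by 0.75, Igfbp6, a binding protein of insulin-like growth factor, by 0.94 and Cygb, the cytoglobin gene, by 0.58. Among the lower genes, Cacnb1, a calcium channel subunit gene, differed by -0.77 and Kcna1, a potassium channel gene, by -0.79. Smarcd3, a chromatin remodelling subunit of heart and muscle, differed by -0.41 and Dnajb5, a co-chaperone gene, by -0.55. None of these passed the adjusted threshold.

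Cell-type lists with few measured members had medians of 0.92 (neutrophil, 3 members), -0.43 (T and NK cells, 2), 0.37 (B cells, 2), -0.29 (mast cells, 3) and -0.06 (lymphatic endothelium, 4).

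Ribosomal protein genes had 68 of 83 above 0 (median 0.12) and proteasome genes 30 of 35 (median 0.11), with 0 genes of either list free of overlap. Over all genes tested, 41.2% lay above 0 and 2.02% were free of overlap. Leaving out 1 library moved the proteasome median between 0.03 (sham replicate 3) and 0.19 (sham replicate 2), with 0.05 for LD replicate 3, 0.06 for TAC replicate 2 and 0.17 for LD replicate 1. The ribosomal list mean was -0.53 in TAC replicate 3 and 0.38 in LD replicate 2, and its median became 0.04 with TAC replicate 2 left out and 0.25 with TAC replicate 3 left out. Hlf, a relative of Dbp in the circadian output, lay the other way from Dbp, at 2.57 to 3.44 FPKM in sham and 0.269 to 2.40 in operated hearts (-0.69 ± 0.33).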
